A study of Mus musculus with 6 samples.

Results

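The CITED coactivator genes Cited1, Cited2 and Cited4 were followed together with Ep300 and Crebbp, which encode their binding partners p300 and CBP, in spermatogonia sorted by an Id4 reporter. The 5 genes were taken by symbol from a table of 31918 genes, and all 5 were found. They were chosen with the Bright against Dim result of this table known, in which Cited1 lay far to the Dim side and Cited2 to the Bright side. The Bright against Dim differences of the 5 genes are therefore given as a description, with no p-value, and whether they passed the threshold applied to all genes is stated without reading anything from it.

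Libraries came from testes of mouse pups on postnatal day 8, all of the genotype Id4-eGfp (LT11), a transgenic line in which green fluorescent protein follows Id4. The comparison was of 3 Bright libraries (high level of Id4 expression) with 3 Dim libraries (low level). Bright and Dim cells both carry the transgene, and no cells without it were analysed here. RNA was total RNA extracted with Trizol, and cDNA was primed with oligo d(T). The labels name 1 transgenic line and leave it unsaid whether pups were pooled or each library had its own animals, so the p-values below measure only the spread between these libraries, which may be technical. Levels are FPKM, fragment numbers scaled to transcript length and library size so that genes can be compared within a library. A trend with transcript length that differed between libraries remained (given below), so short and long genes compare only roughly.

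CITED proteins have no DNA-binding domain of their own. They bind a zinc-binding domain of CBP and p300 through a conserved acidic region at their carboxyl end and act as coactivators of AP-2 and SMAD transcription factors, and CITED2 also competes with the alpha subunit of the hypoxia-inducible factor HIF for that domain. CBP and p300 are large, closely related lysine acetyltransferases that acetylate histones at enhancers and promoters and are recruited by many transcription factors, among them CREB and its relatives. ID4, whose reporter defined the groups, is a helix-loop-helix protein that has no DNA-binding region and keeps E proteins from binding E-boxes.

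The sort was first checked on Id4. Its level was 28.5, 42.7 and 39.7 FPKM in Bright 1, 2 and 3, against 3.75, 4.71 and 5.39 FPKM in Dim 1, 2 and 3. The groups did not overlap, and the log2 difference, Bright minus Dim, was 2.75 (SE 0.19) with a limma adjusted p of 9.69e-05. An exact two-sided permutation test gave 0.1, the smallest value that 3 against 3 libraries allow. The summed FPKM of 8 germ cell markers lay between 1854 and 2658 in every library, and 2 of the 8 passed as higher in Bright. These were Sall4, whose Bright mean was 85.9 ± 4.41 FPKM against a Dim mean of 50.6 ± 7.34, and Zbtb16, with 80.2 ± 18.1 against 41.8 ± 8.83 FPKM (SD, n = 3). Bright 3 stood apart from the other 5 libraries in markers of somatic testis cells. The 8 Leydig cell markers summed to 1855 FPKM in Bright 3 and to between 1.94 and 3.43 FPKM in the others, with Hsd3b6 and Lhcgr at 0 in all 3 Dim libraries. The 9 Sertoli markers summed to 155.9 FPKM in Bright 3 against 7.99 to 19.2 FPKM elsewhere, the 5 myoid markers to 81.2 against 3.37 to 5.66 FPKM, and the 6 stromal markers to 202.1 against 24.7 to 36.2 FPKM. Of these stromal markers Pdgfra passed as higher in Bright, at 8.72 ± 4.21 FPKM against 1.31 ± 0.189 FPKM. The 6 macrophage markers summed to 126.7 FPKM in Bright 3, 46.8 in Dim 1 and 53.7 in Dim 2, against 2.51 to 3.10 FPKM in the remaining libraries. The 5 erythroid markers ranged from 0.910 FPKM in Bright 1 to 19.7 FPKM in Bright 3. The 5 endothelial markers summed to 7.98, 6.51 and 18.2 FPKM in Bright and to 2.57, 2.73 and 2.96 FPKM in Dim, and 4 of the 5 had a limma adjusted p under 0.05, all higher in Bright. Of these, Pecam1 missed it without Bright 3 (0.0532). The part of other cells in the results below was not tested. Where leaving out Bright 3 changes a call given for a named gene, this is stated. Values without Bright 3 are given for some genes only, and a gene with no such value may still move.

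Upstream sequences of the CITED genes that differed are printed because E-boxes, written CANNTG, are the sites of the factors that ID4 holds back. They are RefSeq windows on GRCm38.p6, from 250 bases before to 50 bases after a transcript start, read 5′ to 3′ on the gene's strand, with E-boxes in capitals. Cited1 has 3 such windows, and the gene-level FPKM does not say which start was used. The first is chrX:102252132-102252431, the second chrX:102251794-102252093 and the third chrX:102250727-102251026, all on the minus strand, and the Cited2 window is chr10:17722978-17723277 on the plus strand.
Cited1 window 1: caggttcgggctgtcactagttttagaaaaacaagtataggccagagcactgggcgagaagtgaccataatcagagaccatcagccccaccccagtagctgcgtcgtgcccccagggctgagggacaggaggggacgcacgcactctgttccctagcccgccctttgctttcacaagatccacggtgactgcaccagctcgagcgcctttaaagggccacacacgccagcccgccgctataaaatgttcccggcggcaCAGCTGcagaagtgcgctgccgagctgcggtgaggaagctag
Cited1 window 2: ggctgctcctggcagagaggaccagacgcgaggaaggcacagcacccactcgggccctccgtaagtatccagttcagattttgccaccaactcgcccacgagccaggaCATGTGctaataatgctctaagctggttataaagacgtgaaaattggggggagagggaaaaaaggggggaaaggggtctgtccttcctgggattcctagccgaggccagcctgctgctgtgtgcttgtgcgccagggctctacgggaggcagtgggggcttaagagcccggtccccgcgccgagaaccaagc
Cited1 window 3: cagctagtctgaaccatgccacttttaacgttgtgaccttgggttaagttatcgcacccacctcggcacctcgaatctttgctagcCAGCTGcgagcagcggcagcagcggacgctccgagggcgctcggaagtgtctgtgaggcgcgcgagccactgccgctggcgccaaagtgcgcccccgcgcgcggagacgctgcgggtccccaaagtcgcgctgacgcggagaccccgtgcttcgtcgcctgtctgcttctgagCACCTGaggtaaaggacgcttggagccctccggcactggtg
Cited2 window: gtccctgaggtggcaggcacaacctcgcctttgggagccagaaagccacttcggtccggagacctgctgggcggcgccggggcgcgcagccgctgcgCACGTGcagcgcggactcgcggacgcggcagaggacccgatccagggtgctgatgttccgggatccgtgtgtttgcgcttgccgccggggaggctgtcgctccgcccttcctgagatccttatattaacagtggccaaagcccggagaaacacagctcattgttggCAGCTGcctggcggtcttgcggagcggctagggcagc

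The first Cited1 window holds 1 E-box, the second 1 and the third 2, and the Cited2 window holds 2. Across 32851 windows of 27025 genes, 72.3% hold at least 1 E-box, so a match in these windows is common. The Cited2 window holds the E-box CACGTG at position -153 from the start, which overlaps the HIF motif ACGTG on both strands. The second Cited1 window also holds the HIF motif, which is found in 19.6% of all windows. The CRE core motif TGACG, found in 20.8% of windows, and the AP-2 motif GCCNNNGGC, found in 16.6%, are each present in the third Cited1 window. The Crebbp window holds 2 AP-2 motifs and no other match, and the Cited4 and Ep300 windows hold none of the 4 motifs. Both strands were searched, and a match says only that these letters are there.

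Cited1 was the member with the widest difference between the groups. This gene lies at chrX:102247381-102252181 on the minus strand of GRCm38 (ENSMUSG00000051159), and its protein is best known as a marker of nephron progenitors in the mouse kidney and as a coactivator of SMAD4. Its level was 9.63, 9.06 and 27.0 FPKM in Bright 1, 2 and 3, against 63.7, 98.8 and 63.0 FPKM in Dim 1, 2 and 3. All 3 Dim libraries lay above all 3 Bright libraries, and Bright 3 lay above the other 2 Bright libraries. The means were 15.2 ± 10.2 FPKM in Bright and 75.2 ± 20.5 FPKM in Dim (SD, n = 3 each), so Dim was 4.93-fold higher. On log2(FPKM + 1) the difference, Bright minus Dim, was -2.37 (SE 0.42). Without Bright 3 the fold was 8.04, and the log2 difference was -2.85. Among the 13416 genes tested, those that reached 1 FPKM in 3 or more libraries, Cited1 stood at percentiles 42.5, 41.9 and 70.1 of the level in Bright, against 87.6, 92.3 and 87.3 in Dim.

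Cited2 differed in the opposite direction. The gene lies at chr10:17723228-17725673 on the plus strand (ENSMUSG00000039910), and in mice it is needed for the development of the heart, adrenal gland and early gonad. Its level was 19.8, 27.6 and 26.6 FPKM in Bright 1, 2 and 3, against 6.68, 8.59 and 9.10 FPKM in Dim 1, 2 and 3. Every Bright library lay above every Dim library, and Bright 3 lay between the other 2 Bright libraries. The means were 24.7 ± 4.26 FPKM in Bright and 8.12 ± 1.27 FPKM in Dim, which is 3.04-fold, and the log2 difference was 1.49 (SE 0.18). Its percentile was 60.5, 68.8 and 69.7 in Bright, against 35.2, 41.4 and 42.7 in Dim.

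Cited4 was low in every library. This gene of a single annotated transcript (chr4:120666572-120667820, plus strand, ENSMUSG00000070803) encodes the third CITED protein of the mouse and is studied mainly in mammary gland and heart. Its level was 0.588, 0.464 and 3.60 FPKM in Bright 1, 2 and 3, against 1.00, 1.30 and 0.729 FPKM in Dim 1, 2 and 3. The groups overlapped, and the highest value was that of Bright 3, the library with the somatic markers. The means were 1.55 ± 1.77 FPKM in Bright and 1.01 ± 0.287 FPKM in Dim, with a log2 difference of 0.14 (SE 0.43). Without Bright 3 the log2 difference turned to -0.39. Cited4 met the level needed for testing in 3 libraries only, Dim 1 only just.

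**Figure D1:**
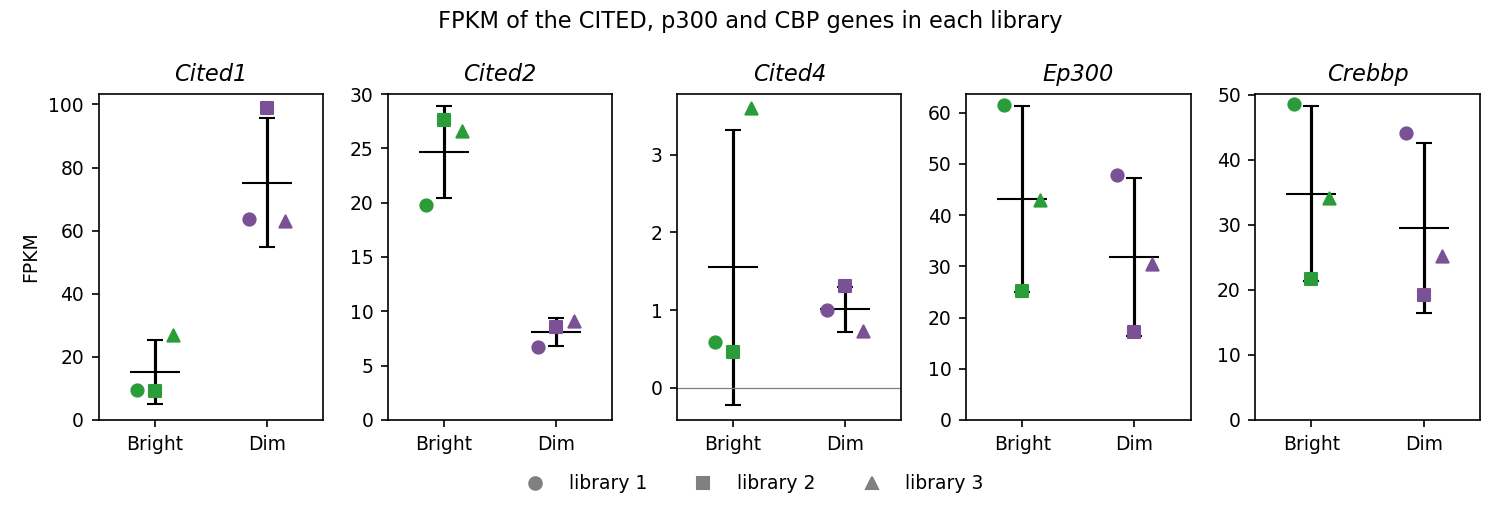
FPKM (linear axes, one scale per gene) of the 5 genes in each Bright (green) and Dim (purple) library; marker shapes give the library number, and the black bar and whiskers are the mean and SD of 3 libraries. Cited1 spans 9.06 to 27.0 FPKM in Bright and 63.0 to 98.8 in Dim, Cited2 spans 19.8 to 27.6 and 6.68 to 9.10, and for Cited4, Ep300 and Crebbp the groups overlap; the lower whisker of Cited4 in Bright passes below 0 because the SD exceeds the mean.

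Set against each other within a library, the 2 main CITED genes changed places. The ratio of Cited1 to Cited2 FPKM was 0.487, 0.328 and 1.02 in Bright 1, 2 and 3, against 9.54, 11.5 and 6.93 in Dim 1, 2 and 3. Cited2 was the more abundant gene in Bright 1 and Bright 2, both were nearly equal in Bright 3, and Cited1 was the more abundant in every Dim library. Of the summed FPKM of the 3 CITED genes, Cited1 made up 32.1%, 24.4% and 47.2% in Bright, against 89.2%, 90.9% and 86.5% in Dim. The CITED sum was 30.0, 37.2 and 57.2 FPKM in Bright, against 71.4, 108.7 and 72.8 FPKM in Dim, so the groups did not overlap. Cited1 and Cited2 were chosen with their opposite differences known, and Cited1 makes up most of the Dim sum. The ratio and the sum restate that choice, and nothing further is read from them. In bulk libraries, fewer cells with a transcript and less of it per cell cannot be told apart, and this holds for every level given here.

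**Figure D2:**
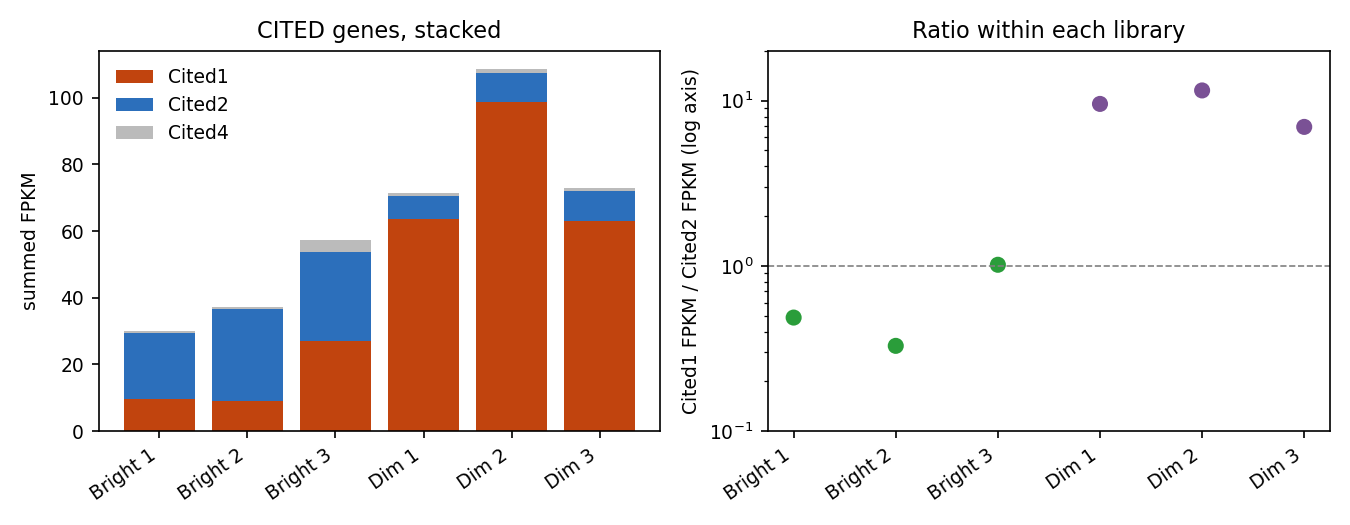
Left, summed FPKM of Cited1, Cited2 and Cited4, stacked for each library; right, the ratio of Cited1 to Cited2 FPKM in each library on a log axis, with the dashed line at equal levels. The ratio is 0.328 to 1.02 in the Bright libraries (green) and 6.93 to 11.5 in the Dim libraries (purple).

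Ep300 and Crebbp differed little between the groups and much within them. Ep300 (chr15:81585351-81652077, plus strand, ENSMUSG00000055024) was at 61.5, 25.2 and 43.0 FPKM in Bright 1, 2 and 3, against 47.9, 17.2 and 30.4 FPKM in Dim 1, 2 and 3. Crebbp (chr16:4081328-4213997, minus strand, ENSMUSG00000022521) was at 48.6, 21.7 and 34.1 FPKM in Bright, against 44.2, 19.2 and 25.2 FPKM in Dim. For both genes the groups overlapped, and in each group library 1 was the highest and library 2 the lowest. The means of Ep300 were 43.2 ± 18.2 FPKM in Bright and 31.8 ± 15.4 FPKM in Dim, a log2 difference of 0.45 (SE 0.45). Those of Crebbp were 34.8 ± 13.5 and 29.5 ± 13.0 FPKM, a log2 difference of 0.24 (SE 0.37). In this fit, with the group as its only term, the difference was about as large as its standard error for Ep300 and smaller than it for Crebbp. Both genes were higher in Bright in each comparison of libraries of the same number, which the labels do not pair. A fit with a replicate block is given at the end.

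Both acetyltransferase genes moved together across libraries. Pearson's r of their log2(FPKM + 1) was 0.97 over the 6 libraries, which share their processing, and the ratio of Ep300 to Crebbp stayed between 0.899 and 1.27. The highest library exceeded the lowest 3.57-fold for Ep300 and 2.54-fold for Crebbp. Long transcripts as a class followed the same order of libraries. Of the genes tested, 99.6% had a transcript length, and in the 10% with the longest transcripts, of at least 6615 bases, the median deviation from the group mean on the log2 scale was 0.20, -0.19 and -0.03 in Bright 1, 2 and 3, against 0.21, -0.16 and -0.05 in Dim 1, 2 and 3. The longest annotated transcript of Ep300 has 9566 bases and that of Crebbp 10820 bases, and their own deviations were larger. Ep300 deviated by 0.59, -0.67 and 0.08 in Bright, against 0.69, -0.74 and 0.05 in Dim, and Crebbp by 0.54, -0.58 and 0.04 and by 0.65, -0.51 and -0.14. With the trend in length removed, which was chosen after the values were seen, the deviations of Ep300 shrank to 0.37, -0.46 and 0.09 in Bright, against 0.45, -0.54 and 0.10 in Dim. The log2 difference was then 0.37 (SE 0.30) for Ep300 and 0.14 (SE 0.22) for Crebbp. The part of transcript length in the library order was not tested beyond these values.

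**Figure D3:**
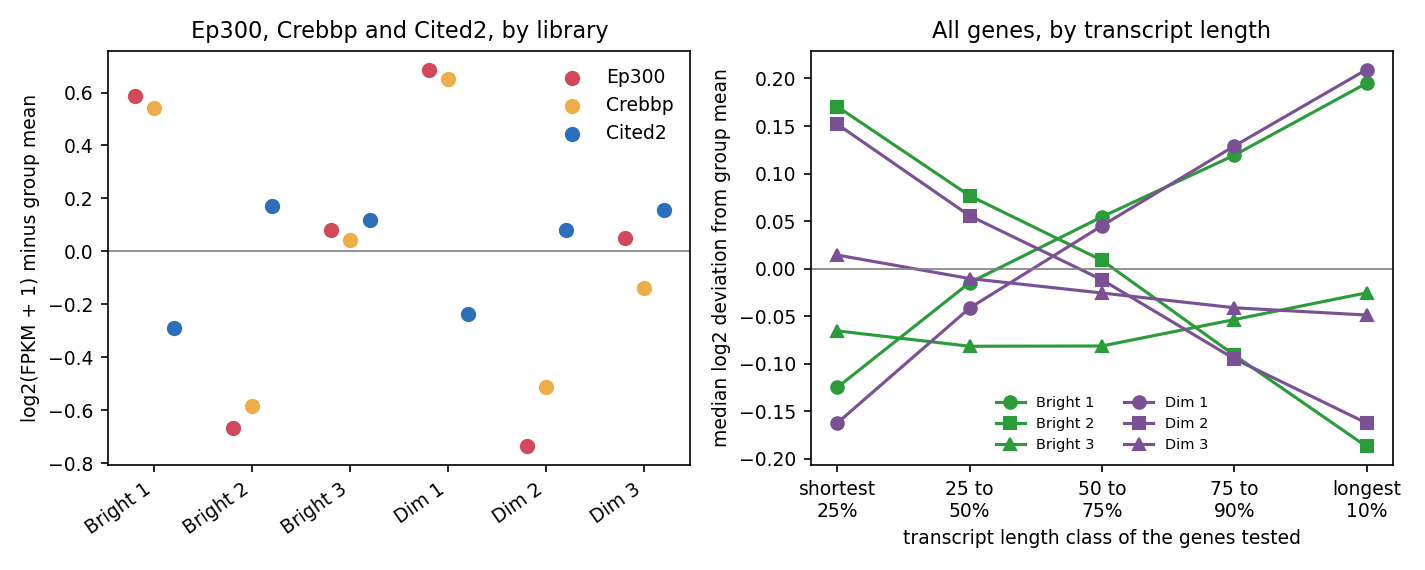
Left, deviation of log2(FPKM + 1) from the group mean for Ep300, Crebbp and Cited2 in each library; right, median deviation of all genes tested in 5 classes of transcript length, green lines for Bright and purple for Dim. Ep300 and Crebbp lie above 0 in library 1 and below 0 in library 2 of both groups, and the longest 10% of genes lie at 0.20 and 0.21 in the libraries numbered 1 and at -0.19 and -0.16 in those numbered 2.

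By mean FPKM the order in Bright was Ep300, Crebbp, Cited2, Cited1 and Cited4, and each neighbouring pair overlapped in its library values down to Cited1, with Cited4 apart below. The overlap of Cited2 with Cited1 came from Bright 3 alone: in Bright 1 and 2 Cited1, at 9.63 and 9.06 FPKM, lay below Cited2, at 19.8 and 27.6 FPKM. In Dim the order was Cited1, Ep300, Crebbp, Cited2 and Cited4. There Cited1 lay above all Ep300 values, Ep300 and Crebbp overlapped, and Cited2 and Cited4 each lay apart below. Overlap of ranges across libraries leaves out the order within a library. The ratio of Ep300 to Crebbp was 1.27, 1.16 and 1.26 in Bright 1, 2 and 3, against 1.08, 0.899 and 1.21 in Dim. Ep300 was thus above Crebbp within each Bright library. The CITED sum relative to the sum of Ep300 and Crebbp was 0.273, 0.792 and 0.742 in Bright, against 0.776, 2.99 and 1.31 in Dim. These groups overlapped, since Dim 1 lay below Bright 2. The sum of Ep300 and Crebbp was itself highest in library 1 and lowest in library 2 of each group. Between libraries of the same number, which the labels do not pair, the Dim ratio was above the Bright ratio each time. Nothing is read from this, since Cited1, chosen on this contrast, makes up most of the Dim CITED sum.

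All 5 genes reached the level needed for testing, Cited4 narrowly. Of the 5 genes, 2 passed a limma adjusted p of 0.05, Cited2 as higher in Bright and Cited1 as higher in Dim. Of all 13416 genes tested, 22.5% passed, 12.0% as higher in Bright and 10.5% as higher in Dim. The same 2 genes of 5 did not overlap between the groups, against 41.1% of all genes tested. Since the 5 genes were chosen on this contrast, nothing is read from these counts. The median log2 difference of all genes was -0.03. Leaving out 1 library at a time kept the log2 difference of Cited1 between -2.85 and -2.11 and that of Cited2 between 1.37 and 1.63. Cited1 lost its call without Dim 1 and without Dim 2. The log2 difference of Ep300 ran from 0.09 to 0.80 and that of Crebbp from -0.03 to 0.57. The sign of Crebbp turned without Bright 1 (-0.03) and without Dim 2 (-0.01).

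**Figure D4:**
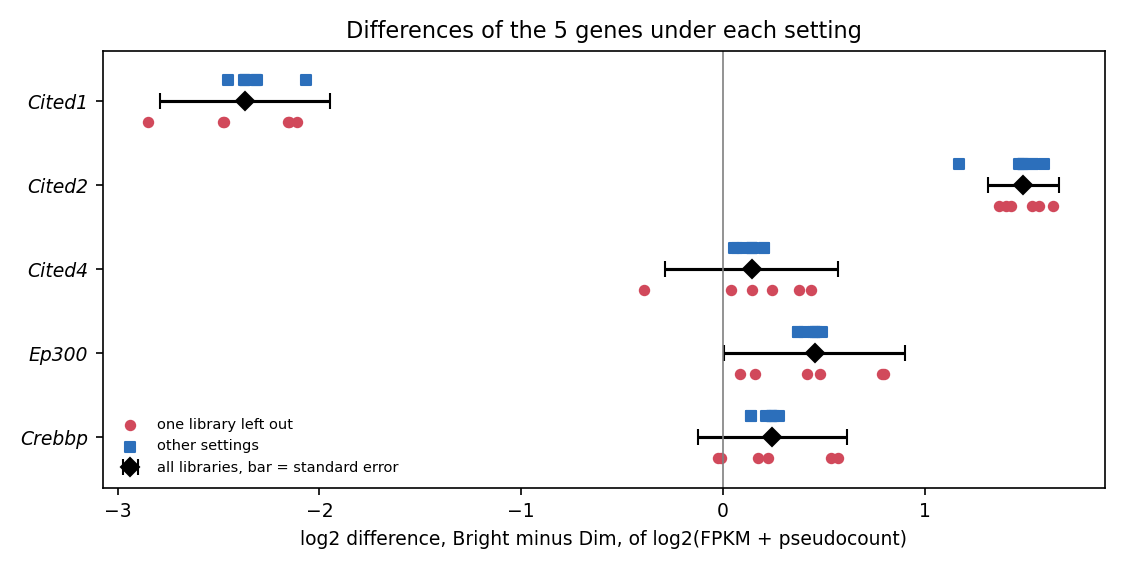
Log2 difference, Bright minus Dim, of the 5 genes with all libraries (black, bar is the standard error), with 1 library left out at a time (red) and under the other settings (blue). Cited1 stays between -2.85 and -2.07 and Cited2 between 1.17 and 1.63, while Cited4 and Crebbp fall on both sides of 0.

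The authors' deposited table gives log2 ratios of Bright to Dim for libraries of the same number and for all libraries. In the authors' deposited table the ratio of Cited1 was -2.88, -3.41 and -1.34 for libraries 1, 2 and 3 and -2.36 for all. That of Cited2 was 1.45, 1.70 and 1.45, with 1.56 for all, in the authors' deposited table. Cited4 had -1.06, -1.54 and 2.07 there, so the authors' deposited table turns in sign at library 3 for this gene. For Ep300 the authors' deposited table holds 0.47, 0.59 and 0.46, and for Crebbp 0.26, 0.22 and 0.30.

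The proteins that work with the CITED proteins, CBP and p300 were examined in 9 lists of 128 genes in all, each gene counted once, of which 114 were tested. Of these, 22 passed as higher in Bright, 8 as higher in Dim and 84 did not pass, so that 26.3% passed against 22.5% of all genes. The lists were chosen with results of these data known, and each is described by its counts and median. Levels below are mean FPKM ± SD over 3 libraries, Bright before Dim, with limma's adjusted p where one is given.

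Among the direct partners of CITED proteins, the AP-2 factors were low. Of 5 genes, 2 were tested, and limma called 0 at an adjusted p of 0.05, also without its trend and robust options, and 0 had an unadjusted p under 0.05. Tfap2c, an AP-2 factor of early germ cells, was at 2.40 ± 0.506 and 2.69 ± 0.162 FPKM, and Tfap2a at 1.60 ± 0.543 and 1.30 ± 0.153 FPKM. Without Bright 3 the log2 difference of Tfap2c went from -0.128 to 0.003 and that of Tfap2a from 0.158 to 0.251. With no filter on low values, Tfap2e was called higher in Dim with an adjusted p of 0.0464 and a log2 difference of -0.69. Of the 5 subunits of HIF, among them alpha subunits that bind the same domain of CBP and p300 as CITED2, 1 passed. This was Epas1, the alpha subunit HIF-2α, at 11.8 ± 1.35 and 6.11 ± 0.281 FPKM (log2 difference 0.84, adjusted p 0.00403). Hif1a, another alpha subunit, was at 24.7 ± 2.39 and 21.8 ± 5.00 FPKM (adjusted p 0.481).

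Of 7 SMAD genes tested of 8, 2 passed as higher in Bright and 1 as higher in Dim, with a median log2 difference of -0.14. Smad6 and Smad7 encode the inhibitory SMADs that block receptor signalling. Smad6 was at 6.63 ± 0.916 and 1.21 ± 0.261 FPKM (log2 difference 1.79, adjusted p 0.000346) and Smad7 at 15.9 ± 0.954 and 6.75 ± 0.655 FPKM (log2 difference 1.12, adjusted p 0.000989). Smad1, a receptor-activated SMAD of bone morphogenetic protein signalling, was higher in Dim, at 10.7 ± 0.572 and 17.1 ± 0.366 FPKM (adjusted p 0.00875). All 3 kept their calls when any 1 library was left out. With no filter on low values, 2 genes of this list were called higher in Dim.

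Of 30 tested genes among 32 other factors that recruit CBP or p300, 6 passed as higher in Bright and 1 as higher in Dim, while 23 did not, with a median of 0.22. Stat3, a signal transducer of cytokines, had 36.6 ± 1.93 and 16.9 ± 1.71 FPKM (adjusted p 0.000977). Foxo3, a transcription factor restrained by AKT, had 40.5 ± 4.58 and 23.4 ± 1.45 FPKM (adjusted p 0.00494). Lhx2, a LIM homeodomain factor that CITED2 is known to bind, had 8.36 ± 2.45 and 3.96 ± 0.793 FPKM (adjusted p 0.0175), and missed the threshold without Dim 3 (0.0683). Tcf4, an E protein and so a partner of ID proteins, had 9.49 ± 3.63 and 4.78 ± 0.933 FPKM (adjusted p 0.0459), and lost its call in 5 of the 6 fits that leave out a library (adjusted p 0.0684 to 0.122), all but that without Bright 2. The gene that was higher in Dim was Atf1, a relative of CREB, at 47.4 ± 4.93 and 64.9 ± 3.71 FPKM (adjusted p 0.0412). When 1 library was left out, Atf1 kept its call only without Bright 1 (otherwise 0.0831 to 0.134). Without Bright 3 the list held 5 genes higher in Bright and 0 in Dim.

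Of 14 tested inhibitors and cofactors of CBP and p300 among 16, 3 passed as higher in Bright and 2 as higher in Dim, while 9 did not, with a median of -0.16. Maml3, a coactivator of Notch, was at 3.16 ± 0.236 and 1.06 ± 0.107 FPKM (adjusted p 0.00184). Set, part of the complex that shields histones from acetylation, was at 226.5 ± 25.4 and 137.0 ± 19.9 FPKM (adjusted p 0.0162), and missed the threshold without Dim 1 (0.0533). Carm1, an arginine methyltransferase that modifies CBP and p300, was at 26.4 ± 5.05 and 15.0 ± 2.65 FPKM (adjusted p 0.0209). In the other direction, Ncoa1, a nuclear receptor coactivator, was at 1.45 ± 0.935 and 3.97 ± 1.61 FPKM (adjusted p 0.045), and Eid2, an inhibitor of p300 acetylation, at 13.1 ± 2.52 and 22.0 ± 3.28 FPKM (adjusted p 0.0216). When 1 library was left out, Eid2 kept its call only without Bright 2 and without Dim 1 (adjusted p otherwise 0.0668 to 0.0744). Carm1 kept its call in the same 2 fits (adjusted p otherwise 0.0535 to 0.0704), and Ncoa1 only without Bright 3 and without Dim 3 (otherwise 0.101 to 0.117).

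Of 12 lysine acetyltransferases other than CBP and p300, 1 passed, with a list median of 0.20. This was Kat2b, which encodes PCAF, an acetyltransferase that binds CBP and p300, at 14.7 ± 4.13 and 2.80 ± 0.650 FPKM (log2 difference 2.03, adjusted p 0.000731). Without Bright 3 Kat2a, its paralogue, passed as well, with an adjusted p of 0.0401. Of 10 bromodomain proteins that read acetylated lysine, 1 was higher in Bright and 2 in Dim. Brd1, a subunit of an acetyltransferase complex, was at 41.4 ± 6.14 and 22.7 ± 2.71 FPKM (adjusted p 0.00625). Its relative Brpf3 went the other way, at 9.59 ± 1.23 and 20.1 ± 3.64 FPKM (adjusted p 0.00416). Brd7 was at 79.4 ± 9.28 and 114.1 ± 8.33 FPKM (adjusted p 0.033) and kept the call only without Bright 2 when 1 library was left out (otherwise 0.0624 to 0.118).

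Of 23 HIF target genes tested among 25, 5 passed as higher in Bright and 2 as higher in Dim, while 16 did not, with a median of 0.07. Pdk1, which holds pyruvate dehydrogenase inactive by phosphorylation, was at 88.4 ± 8.06 and 27.7 ± 3.84 FPKM (log2 difference 1.64, adjusted p 0.000261). Ldha, a subunit of lactate dehydrogenase, was at 19.4 ± 6.84 and 8.22 ± 1.13 FPKM (log2 difference 1.10, and 0.85 without Bright 3; adjusted p 0.0115). Kdm3a, a histone demethylase, was at 69.5 ± 8.99 and 40.1 ± 4.72 FPKM (adjusted p 0.00747). Bnip3, which acts in mitophagy, was the HIF target with the largest difference towards Dim, at 30.1 ± 1.27 and 72.9 ± 0.848 FPKM (log2 difference -1.25, adjusted p 0.000346). P4ha2, a prolyl hydroxylase of collagen, was the other one higher in Dim, at 5.26 ± 0.474 and 7.68 ± 0.544 FPKM (adjusted p 0.0429), and missed the threshold whichever library was left out (0.0649 to 0.157).

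Of 12 CREB target genes tested among 16, 3 passed as higher in Bright and 0 as higher in Dim, while 9 did not, with a median of 0.75. In Dim 0 also had an unadjusted limma p under 0.05. Sik1, a kinase induced by cyclic AMP, was at 29.5 ± 1.78 and 14.8 ± 1.09 FPKM (adjusted p 0.00151). Nr4a1, an immediate-early nuclear receptor, was at 35.2 ± 18.9 and 12.3 ± 0.344 FPKM (log2 difference 1.32, and 0.92 without Bright 3; adjusted p 0.0204) and lost its call without Dim 1, without Dim 2 and without Dim 3 (0.0678 to 0.091). Pde4d, which breaks down cyclic AMP, was at 2.71 ± 0.289 and 1.54 ± 0.243 FPKM (adjusted p 0.0334) and lost it whichever library was left out. Fos, Junb and Fosb, which did not pass, were chosen after their values were seen because Bright 3 holds 201.6, 92.4 and 68.3 FPKM of them. Bright 1 holds 30.9, 5.13 and 1.33 FPKM and Bright 2 holds 14.4, 4.18 and 1.06 FPKM. The Dim means are 15.1, 2.84 and 2.81 FPKM. The part of Bright 3 in the list's median was not tested. Without Bright 3, 2 CREB targets were higher in Bright and 1, Nr4a3, higher in Dim.

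**Figure D5:**
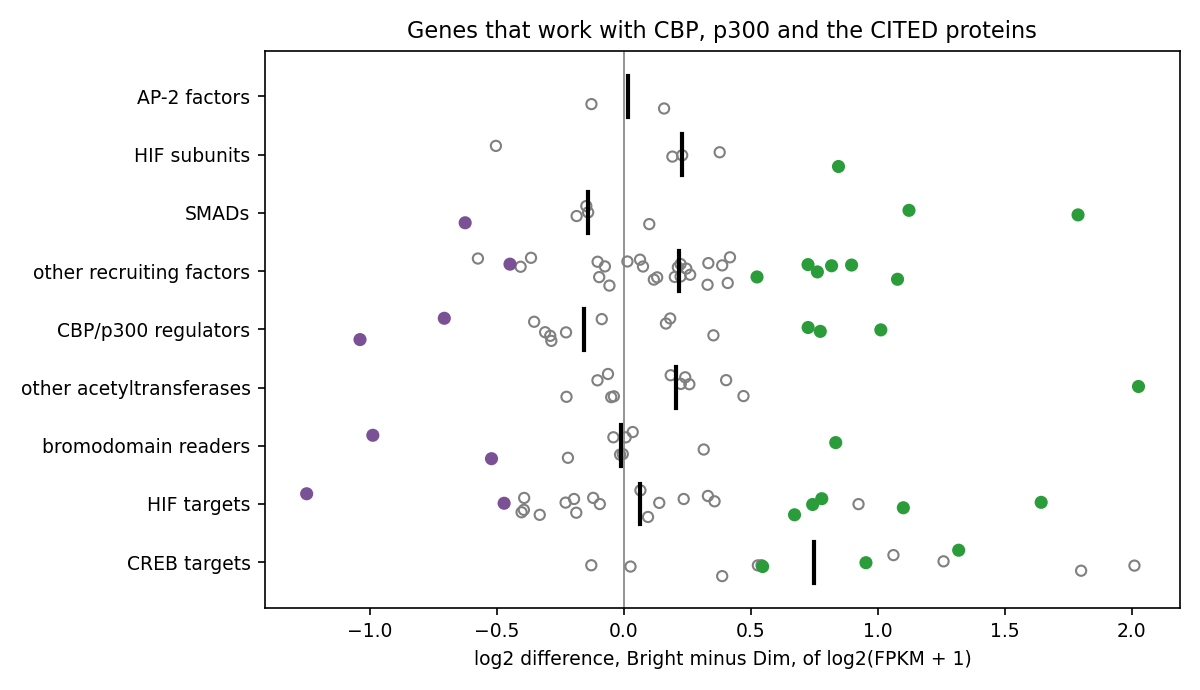
Log2 difference, Bright minus Dim, of the tested genes of 9 lists; filled points passed a limma adjusted p of 0.05 (green higher in Bright, purple higher in Dim), open points did not, and the black mark is the list's median. Medians lie between -0.16 (regulators of CBP and p300) and 0.75 (CREB targets); vertical scatter within a list carries no value.

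The genes whose levels ran most like those of each member were sought among 11689 named protein-coding genes, by Pearson's r of log2(FPKM + 1) over the 6 libraries, which share the groups and the processing. For Cited1 they were Slc46a1 (r = 0.997), the proton-coupled folate transporter, Nudt18 (0.996), Chst14 (0.993) and Mlxipl (0.993), a glucose-responsive transcription factor. Slc46a1 stood at 2.41, 2.48 and 3.63 FPKM in Bright 1, 2 and 3, against 5.58, 6.61 and 5.57 FPKM in Dim, with the same step up in Bright 3 and in Dim 2. For Cited2 they were Caly, Bag3, Ccdc125 and Rhoh, with r between 0.998 and 0.999. At the lower bound of 0.95, genes with a higher r numbered 137 for Cited1, 606 for Cited2, 111 for Cited4, 177 for Ep300 and 183 for Crebbp. How many genes came near the r of the nearest ones was not counted. Bag3, a cochaperone of heat shock proteins, stood at 6.34, 7.63 and 8.03 FPKM in Bright, against 2.58, 3.11 and 3.32 FPKM in Dim.

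For Cited4 the nearest genes were Fbxo4 (r = 0.997), Cd200 (0.992), Slco3a1 (0.990) and Gyg (0.990), and all 4 were highest in Bright 3. Cd200, a surface glycoprotein, stood at 0.480, 0.574 and 8.24 FPKM in Bright. For Ep300 they were Tanc2, Zfp26 and Cep192 (r of 0.998 to 0.999) and Bmpr1a (0.997), a receptor for bone morphogenetic proteins. Their longest transcripts have 11855, 11276, 8093 and 5956 bases, and that of Bmpr1a is below the 6615 bases of the longest class. Tanc2, a scaffold protein, stood at 32.6, 15.3 and 24.6 FPKM in Bright, against 25.8, 11.1 and 17.3 FPKM in Dim, high in library 1 and low in library 2 of each group. For Crebbp they were Brwd1 (0.997), Nbeal1 (0.997), Cep290 (0.996) and Gpatch8 (0.995), with longest transcripts of 9843, 15731, 8211 and 6871 bases.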

How the data were processed

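Per the submitters' processing notes, reads were handled with TopHat2 2.1.1 and Cufflinks 2.2.1, and the build is named as mm9; parameters and strand are not given in the sources used here, so reads of overlapping genes on opposite strands may be mixed. The authors deposited FPKM per gene and tables of log2 ratios of FPKM. Gene coordinates match GRCm38, since 81.0% of 31584 identifiers have the same coordinates in GENCODE M21. Read totals are not given. Whole reads were not recovered: 46.5% to 50.8% of low-value ratios to Bright 1 came within 2% of a quotient of integers no larger than 4. Depth is therefore not known, and the best-fitting values of that check, 1.20 to 1.65 times Bright 1, are not taken as depths. Genes of at least 1 FPKM numbered 12954 to 14209 per library. No per-sample column was left unused (0).

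From the deposited FPKM, log2(FPKM + 1) was tested in limma 3.58.1 (R 4.3.3), with trend and robust moderation, for the 13416 genes that reached 1 FPKM in 3 or more of the 6 libraries. The two-sided p-values were Benjamini-Hochberg adjusted over all of these, with a threshold of 0.05. A fold on this scale understates the change of low genes. The fit was tested on simulated data. The 5 genes and all lists, including the markers of germ, Leydig, Sertoli, myoid, stromal, endothelial, macrophage and erythroid cells, were chosen with earlier results of these data known. Named genes are the 5, their 4 nearest by r, up to 4 called genes per list with the largest log2 difference (or the 2 with the highest mean), and Id4. Named outside this rule, after their values were seen, were Atf1, Eid2, P4ha2, Hif1a, Tfap2e, Kat2a, Nr4a3, Fos, Junb, Fosb and single markers. The alternatives changed pseudocount, scaling, filter, moderation, replicate block, transcript-length trend and the libraries used. Motifs were sought on both strands of RefSeq windows. A planned comparison of protein sequences was not run.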

Additional observations from a re-analysis of the deposited data

How the results depend on the processing

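The directions of Cited1 and Cited2 held under all settings run. Both genes were chosen on this contrast and their groups do not overlap. Leaving out a library or changing the pseudocount could therefore not turn them, and nothing is read from it. The directions of Cited4 and Crebbp turned when 1 library was left out. For Cited4 the log2 difference was -0.39 without Bright 3, and for Crebbp it was -0.03 without Bright 1 and -0.01 without Dim 2. The log2 difference of Cited2 was 1.17 with a pseudocount of 5. Leaving out 1 library gave 1957 to 2603 called genes, 1095 to 1418 of them higher in Bright and 849 to 1225 higher in Dim. Of the 26 list genes named as called, 15 kept their call in all 6 such fits. With no filter on low values, Atf1, Brd7, Carm1, Eid2, Lhx2, Ncoa1, Nr4a1, P4ha2, Pde4d and Tcf4 lost their calls (limma adjusted p 0.0533 to 0.115). With a pseudocount of 5, Ncoa1 and Tcf4 lost theirs. Without limma's trend and robust options Atf1, Ncoa1 and Tcf4 did, and with quantile normalization Atf1, Pde4d and Tcf4. Tcf4 also lost its call with median scaling and with the transcript-length trend removed.

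Libraries of the same number in both groups may share an origin, but the labels do not say so. Their deviations from the group mean correlated at 0.44 for number 1, 0.51 for number 2 and -0.19 for number 3. Between libraries of different number the values ran from -0.60 (Bright 2 with Dim 1) to 0.18 (Bright 2 with Dim 3). Numbers 1 and 2 lay above all of these and number 3 did not. The pairing was not taken as part of the design, and whether it exists is not settled by these values. With a replicate block, 5453 genes were called, of which 2607 lay to the Bright side and 2846 to the Dim side; the calls of Cited1, Nr4a1 (adjusted p 0.0771) and Ncoa1 (0.102) were not kept, and Ep300 was called. In the blocked fit the standard error was 0.091 for Ep300 and 0.098 for Crebbp, and the log2 differences of libraries 1, 2 and 3 were 0.35, 0.52 and 0.48 for Ep300 and 0.14, 0.17 and 0.42 for Crebbp. With the block and the transcript-length trend removed, an alternative chosen after seeing the data, the counts were 5544, 2811 and 2733. The cause of these changes was not tested.

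Strand, read totals and the origin of the libraries are not known, and 3 libraries a group limit every value. Count tests on recovered reads were not run, because whole reads could not be recovered. Cited4 lies near the filter, so its level is the least certain of the 5.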
